A study of Mus musculus with 6 samples.

Results

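Ccl2, Ccl7, Ccl11, Ccl5, Cxcl1, Cxcl5, Cxcl12, Il6 and Csf1 are genes for secreted proteins that call in or sustain leukocytes. These 9 genes, of 52636 in the count table, were picked by name, and the choice was made knowing that Ccl11 was higher and endothelial Csf1 lower in knockout sums. The differences between genotypes that follow, with their fitted values, are therefore a description of these genes, and whether a member passed a threshold is not read as evidence. The cells were cultured RPE and choroid cells of male C57BL/6J mice aged 12 to 16 months, with 3 samples from Dram2 wt/wt mice and 3 from Dram2 ko/ko mice, which carry a constitutive CRISPR/Cas9 knockout of Dram2 in all tissues. The RPE is the pigmented layer beneath the retina and the choroid is the vascular layer behind it. Both were dissociated with papain and grown in an epithelial growth medium before capture, so the values describe cells in culture and not the eye. Single-cell libraries with 3′ chemistry counted each RNA by its unique molecular identifier (UMI). Dram2 ko/ko replicate 3 was the only sample of batch 2.

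Chemokines are small secreted proteins that guide leukocytes along a gradient through receptors on their surface. The CC group mostly attracts monocytes, eosinophils and T cells, and much of the CXC group attracts neutrophils. Fibroblasts and other stromal cells are known to make several of them when they receive inflammatory signals, often through the transcription factor NF-kB. Interleukin 6 (Il6) is a cytokine of the acute response, and Csf1 is the growth factor that keeps macrophages alive.

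On the mouse genome GRCm38, Ccl2, Ccl7 and Ccl11 lie next to each other on the plus strand of chromosome 11. Ccl2 spans chr11:82035571-82037453 and overlaps Gm17268 on the opposite strand, Ccl7 spans chr11:82045712-82047525 and Ccl11 spans chr11:82057823-82062955, with gaps of 8.26 and 10.3 kb between them. Ccl5 lies 1463 kb further on, at chr11:83525778-83530518 on the minus strand. Cxcl5 (chr5:90759360-90761624) and Cxcl1 (chr5:90891241-90893115) lie 129.6 kb apart on chromosome 5, and Il6 lies on the same chromosome at chr5:30013114-30019981. Cxcl12 is at chr6:117168535-117181367. Csf1 is at chr3:107741048-107760469 on the minus strand, 1165 kb from Dram2. Of the last 400 transcribed bases, where 3′ reads fall, at most 0.676% of any member's 31-base words were found in another gene.

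RefSeq promoter windows on GRCm38.p6, running from 250 bases before to 50 bases after the transcription start, were at hand for 4 of the 9 genes, Cxcl1, Cxcl12, Il6 and Csf1. They were searched on both strands for a kappaB-like motif (GGG and CC with any 5 bases between), an AP-1-like motif (TGANTCA), a C/EBP-like motif (TTNNGNAAT) and a STAT6-like motif (TTC and GAA with any 4 bases between). The stretches shown are the ones that set Il6 apart from the other windows, and 1 of the kappaB-like matches of each of Il6, Cxcl1 and Csf1. Their further kappaB-like matches and the 1 match in Cxcl12 are not printed. Capitals mark the motif.
Cxcl1, kappaB-like, chr5:90891164-90891193, plus strand: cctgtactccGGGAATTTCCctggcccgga
Il6, kappaB-like, chr5:30013060-30013089, plus strand: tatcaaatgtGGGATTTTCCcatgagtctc
Csf1, kappaB-like, chr3:107760605-107760634, minus strand: cgggccttgaGGGAAAGTCCctaggggcca
Il6, C/EBP-like, chr5:30012976-30013005, plus strand: cgacgtcacaTTGTGCAATcttaataaggt
Il6, AP-1-like, chr5:30012864-30012893, plus strand: cTGAGTCActtttaaagaaaaaaaagaaga
The kappaB-like letters were found in all 4 windows and in 50.8% of 32851 promoter windows of the same length, so the match by itself is common. Matches on the 2 strands can overlap and were counted separately, which gave 5 in Csf1, 4 in Cxcl1, 3 in Il6 and 1 in Cxcl12. The Il6 window alone of these 4 held the AP-1-like and the C/EBP-like motif, which occur in 7.81% and 11.5% of all windows. None of the 4 held the STAT6-like motif (6.95% of all windows).

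The 6 libraries held 2140 to 6648 cells and 96808998 to 122746184 UMIs each. A level is the UMI count of a gene per 1000000 UMIs of all genes (CPM) after summing the cells of a sample, or of a cell type within a sample. The 8 cell type names are those of the deposited annotation, and they were checked against marker genes. In RPE cells Krt18 and Otx2 averaged 710 and 87.4 CPM, while Rpe65, which defines mature RPE, was near absent at 0.693 CPM. Of the other RPE genes, Rlbp1, Krt8, Dct and Tyrp1 were highest there, at 6.59, 3.94, 1.73 and 0.505 CPM. Best1, Mitf, Cdh1 and Pmel were higher in another type. The markers of Pericyte were mixed. Of the 7 pericyte genes, Cspg4 was highest there at 199 CPM, while Rgs5, at 7.79 CPM, and the other 5 were higher in other types. The Schwann cell genes Ngfr and Sox10 were at 407 and 179 CPM. The name is kept as a label. Fibroblast 2 differed from Fibroblast in its matrix genes, with 2536 against 579.7 CPM of Dcn and 76.3 against 645 CPM of Col1a2. Endothelial cells (Pecam1 at 653 CPM) and Myeloid cells (Lyz2 at 10629 CPM) carried their markers. Cells were listed by running identifiers, so barcodes shared between libraries could not be counted. Dram2 itself was at 33.4, 39.6 and 38.1 CPM in Dram2 wt/wt and at 30.7, 28.3 and 30.1 CPM in Dram2 ko/ko. Reads of the 3′ end lie outside the edited exon 4, so this level does not check the knockout.

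**Figure D1:**
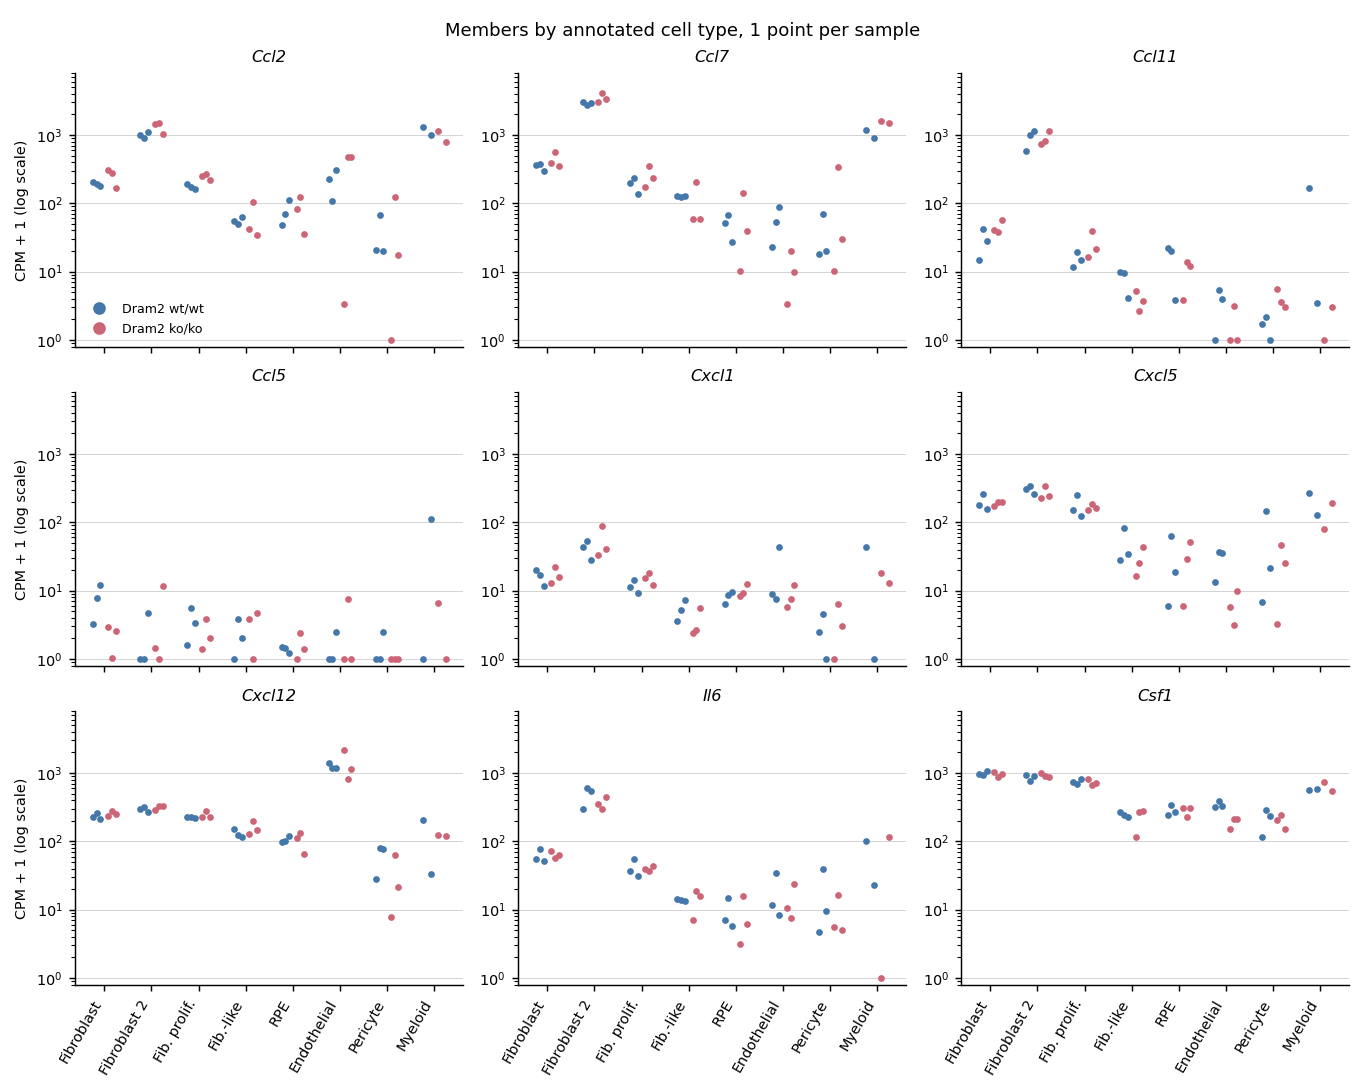
Level of each of the 9 genes (CPM + 1, log scale) in each annotated cell type, with 1 point per sample and the genotypes in colour. Sums of fewer than 10 cells are left out, which leaves 2 samples per genotype in Myeloid. Ccl11 stood highest in Fibroblast 2, Cxcl12 in Endothelial, and Csf1 was high in all 3 large fibroblast types.

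Ccl11 encodes eotaxin-1, the ligand of Ccr3 that draws eosinophils into tissue. Most of its molecules came from a single fibroblast state. Fibroblast 2, with 3019 of 25428 cells, held 77.1% of the 73634 Ccl11 UMIs, between 66.8% and 87.0% in single samples, and Fibroblast held 17.2%. The level in Fibroblast 2 was 909 CPM ± 235 (SD, n = 6). It was 35.7 CPM ± 14.3 in Fibroblast, 19.6 CPM ± 9.95 in Fibroblast proliferating, 11.6 CPM ± 7.68 in RPE and at most 4.87 CPM in Fibroblast-like, Pericyte and Endothelial cells. Fibroblast 2 was above every other type in all samples, with no overlap of ranges, and was 25.4 times Fibroblast. The ranges of all other neighbours in this order overlapped. These clusters were built from the same cells and genes, so the order describes them and is not tested. The mean of 42.5 CPM ± 82.1 (n = 4) in Myeloid rested on Dram2 wt/wt replicate 2, where 4 of 32 cells held 98 UMIs and 1 of them 61, and the other 3 sums lay between 0 and 2.47 CPM.

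Ccl11 was not spread evenly over cells. In Fibroblast 2, 1073 of 3019 cells had a Ccl11 UMI, and the cell with the most held 953 of the 56775 UMIs there. In the whole data set, 2828 cells (11.1%) had a Ccl11 UMI, and the 254 cells with the most, 1% of all cells, held 67.1% of them. The corresponding shares were 23.1% for Ccl7, 26.9% for Ccl2, 23.3% for Il6, 8.77% for Cxcl12 and 6.05% for Csf1. After every cell was thinned to 4000 UMIs, which set aside 219 Dram2 wt/wt and 333 Dram2 ko/ko cells, 26.9% of Fibroblast 2 cells had a Ccl11 UMI (exact binomial 95% interval 25.3 to 28.5, median depth 18394 UMIs). The share was 2.93% in Fibroblast (2.65 to 3.24, median depth 26108 UMIs) and 0.977% in Pericyte (0.202 to 2.83, median depth 13598 UMIs). Without thinning these shares were 35.5%, 8.79% and 2.92%. Such intervals cover counting error only.

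Among the fibroblast sub-clusters, which number 9, Ccl11 was again concentrated in a single group. Sub-cluster 3, where 2964 of 3790 cells were named Fibroblast 2 and 811 Fibroblast, held 89.2% of all Ccl11 UMIs. Its level was 786 CPM ± 212 (n = 6), and sub-cluster 7 followed at 63.5 CPM ± 40.9. Sub-cluster 1, the largest with 9965 cells, stood at 12.3 CPM ± 5.80. The cells named Fibroblast split by this border. Those in sub-cluster 3 had 410 CPM ± 228 of Ccl11 and those in other sub-clusters 11.7 CPM ± 4.23 (n = 6 each). The same split gave 1757 against 293 CPM for Ccl7, 711 against 185 CPM for Ccl2 and 245 against 49.4 CPM for Il6.

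**Figure D2:**
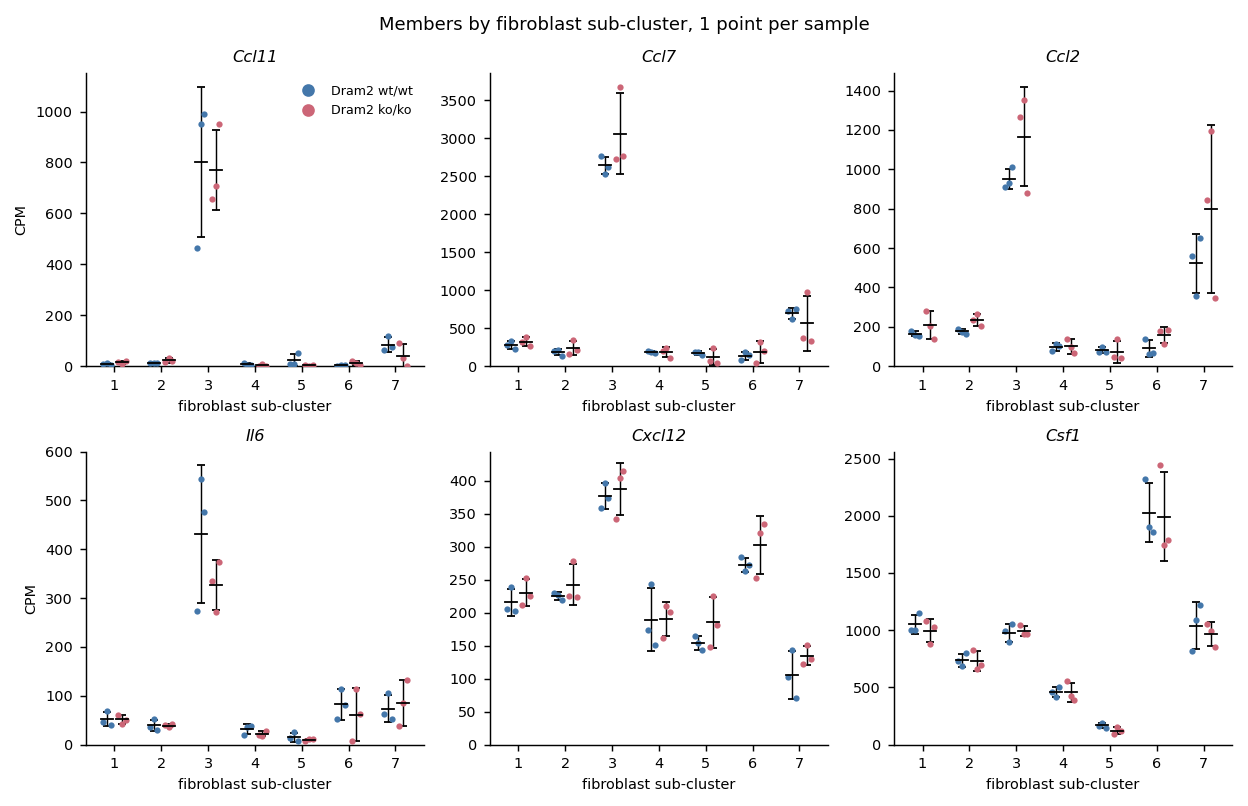
Level (CPM) of 6 of the genes in fibroblast sub-clusters 1 to 7, with 1 point per sample, a bar at the mean of each genotype and whiskers of 1 SD (n = 3). Ccl11, Ccl7, Ccl2 and Il6 peaked in sub-cluster 3 and Csf1 in sub-cluster 6. Sub-clusters 8 and 9 had 10 or more cells in only 4 and 3 samples and are left out.

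Ccl7, also called MCP-3, attracts monocytes through Ccr2 and other receptors. Its pattern was that of Ccl11 on a broader base. Fibroblast 2 had 3203 CPM ± 475 (n = 6) and lay above every other type in all samples. Myeloid cells followed at 1287 CPM ± 306 (n = 4), Fibroblast at 387 CPM ± 88.6, Fibroblast proliferating at 221 CPM ± 75.9 and Endothelial at 32.0 CPM ± 31.9. Fibroblast 2 held 54.2% of the Ccl7 UMIs and sub-cluster 3 held 64.2%. In thinned cells, 78.3% of Fibroblast 2 cells had a Ccl7 UMI, against 67.9% of Myeloid, 30.2% of Fibroblast and 7.53% of Endothelial cells. Without thinning these shares were 87.4%, 82.1%, 57.7% and 15.3%. The Myeloid sums also held fibroblast RNA, here and for every gene given in them. Their 8 fibroblast markers summed to 1753 to 4866 CPM in Dram2 wt/wt and 2490 to 4049 CPM in Dram2 ko/ko, with Dcn at a mean of 458 CPM and Col1a1 at 373 CPM. Its part in the Myeloid levels was not tested.

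Ccl2, the monocyte attractant MCP-1, was about as high in Myeloid as in Fibroblast 2. Fibroblast 2 was at 1165 CPM ± 238 (n = 6) and Myeloid at 1054 CPM ± 220 (n = 4), and the ranges of these 2 types overlapped. Endothelial (263 CPM ± 190), Fibroblast (218 CPM ± 56.9) and Fibroblast proliferating (210.5 CPM ± 43.6) overlapped each other. In the Endothelial sums of Dram2 wt/wt, 1 cell held 86 of 260, 40 of 48 and 151 of 203 Ccl2 UMIs. In those of Dram2 ko/ko, 1 cell held 1 of 1, 125 of 218 and 80 of 208. RPE, Fibroblast-like and Pericyte were at or under 77.7 CPM. By number of molecules the fibroblasts dominated, with 38.3% of the UMIs in Fibroblast and 40.0% in Fibroblast 2. A Ccl2 UMI was present in 70.4% of thinned Myeloid cells, 58.1% of thinned Fibroblast 2 cells and 8.47% of thinned Pericyte cells, and without thinning in 85.7%, 75.4% and 21.1%.

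The 3 neighbouring genes were often detected in the same Fibroblast 2 cells. Of thinned cells with a Ccl11 UMI, 94.9% also had Ccl7, against 72.1% of cells without Ccl11, and the first share was the higher in each of the 6 samples. Of cells with a Ccl7 UMI, 67.1% had Ccl2, against 25.8% of cells without Ccl7. The remaining pair was less marked, with Ccl2 in 71.3% of cells with Ccl11 and 53.3% of cells without. Il6, which lies on another chromosome, was also detected with them. Over all samples, Ccl11 was found in 33.7% of cells with Il6 and in 20.3% of cells without, and the first share was again the higher in each of the 6 samples. Ccl7 was found in 83.7% of cells with Il6 against 73.0% without, and Ccl2 in 64.6% against 51.9%. Whether position on the chromosome plays a part was not tested. All shares are over 2994 cells, and cells of a sample are not independent replicates.

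Ccl5 (RANTES), an attractant of T cells and monocytes, was the rarest member, with 2159 UMIs in 131 cells. Its level over whole samples was 1.44, 4.91 and 8.18 CPM in Dram2 wt/wt and 1.22, 0.911 and 1.97 CPM in Dram2 ko/ko, and the groups overlapped. The values rested on very few cells. The 24 cells with 10 or more Ccl5 UMIs held 91.1% of all of them, and the fibroblast with the most held 651. Of these 24 cells, 23 were fibroblasts and 1 was Myeloid. The 23 fibroblasts came from every sample, with 2, 6 and 8 from Dram2 wt/wt and 2, 1 and 4 from Dram2 ko/ko. The other fibroblasts numbered 3590, 3950 and 4064 in Dram2 wt/wt and 2027, 6361 and 3241 in Dram2 ko/ko. As shares of all fibroblasts of a sample, the Ccl5-rich cells overlapped between genotypes.

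The Ccl5-rich fibroblasts carried a set of genes that are known targets of interferon. All their UMIs were pooled and set beside those of the 23233 other fibroblasts, and the 12 genes with the highest ratio were listed after 5 CPM had been added to both sides. Isg15, a ubiquitin-like interferon target, was at 1203 CPM against 34.0 CPM and was found in 22 of the 23 cells. Ifit1, a sensor of viral RNA, was at 967 CPM against 10.6 CPM, in 19 cells. Ifit3 (350 against 7.65 CPM, in 16 cells), Ifih1 (134 against 5.28 CPM, in 18 cells), Oasl1 (117 against 0.633 CPM, in 13 cells) and Irf7 (122 against 4.97 CPM, in 11 cells) were of the same kind. Cxcl10, a chemokine that interferon induces, had the highest ratio, at 1217 against 3.76 CPM, but in only 5 of the 23 cells, and Rsad2 (340 against 0.959 CPM) was found in 6. Of the 44 fibroblasts with 10 or more Cxcl10 UMIs, 5 had any Ccl5 UMI, so most Cxcl10-rich fibroblasts had none. Gbp2, Gbp3, Oasl2 and Ifit3b completed the 12. The other members moved less and in both directions. Ccl7 was at 820 against 647 CPM, Ccl2 at 684 against 319 CPM, Csf1 at 797 against 896 CPM, and Ccl11 at 51.2 against 118 CPM. No UMI of the leukocyte gene Ptprc or of the T cell genes Cd3d, Cd3e and Trac was counted in the 23 cells. These cells were deeper than other fibroblasts, with a median of 33194 against 23655 UMIs. The cells were picked by their Ccl5 count after the values had been seen, and the comparison is a description of them.

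**Figure D3:**
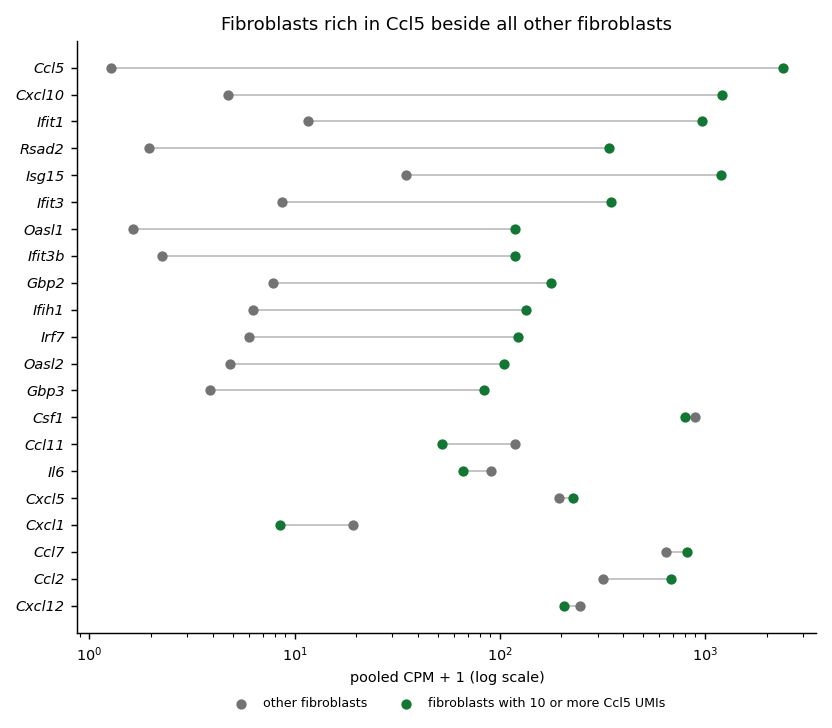
Pooled level (CPM + 1, log scale) of Ccl5, of the 12 genes with the highest ratio and of the other 8 members in the 23 fibroblasts with 10 or more Ccl5 UMIs (green) and in the 23233 other fibroblasts (grey). The interferon targets lie far to the right in the Ccl5-rich cells, while Csf1, Il6, Cxcl5, Ccl7 and Cxcl12 lie close together, Ccl2 is higher and Ccl11 and Cxcl1 are lower in those cells.

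Cxcl1 and Cxcl5 are neutrophil attractants that act through Cxcr2. Cxcl5 was a broad fibroblast product, at 285 CPM ± 50.1 in Fibroblast 2, 192 CPM ± 34.7 in Fibroblast and 168 CPM ± 43.1 in Fibroblast proliferating (n = 6 each), with overlapping ranges. Myeloid cells stood at 165 CPM ± 80.1 (n = 4), and the remaining types were at or under 40.2 CPM. Cxcl5 was above Fibroblast in the Fibroblast 2 sums of all 6 samples, by 1.49 times. Cxcl1 was scarcer. It was at 46.7 CPM ± 21.3 in Fibroblast 2 and at 15.7 CPM ± 4.03 in Fibroblast, and 1 Fibroblast 2 cell held 506 of the 3284 Fibroblast 2 UMIs. In thinned cells, 9.59% of Fibroblast 2 cells had a Cxcl1 UMI, against 3.98% of Fibroblast and 0.977% of Pericyte cells, and without thinning the shares were 20.6%, 12.6% and 3.25%.

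Cxcl12 (SDF-1), the ligand of Cxcr4, holds progenitor cells in place and guides vessel growth. It alone of the 9 genes had its highest level outside fibroblasts in all 6 samples. Endothelial sums were at 1421, 1195 and 1180 CPM in Dram2 wt/wt and at 2187, 815 and 1143 CPM in Dram2 ko/ko. Every Endothelial sum lay above every sum of the next type, Fibroblast 2 at 305 CPM ± 26.0, and the ratio of means was 4.34. A Cxcl12 UMI was found in 80.3% of thinned Endothelial cells, against 52.4% in Fibroblast 2 and 9.45% in Pericyte cells, and without thinning the shares were 86.1%, 81.8% and 25.6%. Endothelial cells were few (288), so Fibroblast and Fibroblast proliferating still held 54.7% and 26.4% of all Cxcl12 UMIs. Among sub-clusters, Cxcl12 was highest in sub-cluster 3 (382 CPM) and sub-cluster 6 (288 CPM), and their ranges did not overlap.

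Il6 followed Ccl11. Fibroblast 2 was at 425 CPM ± 132 (n = 6) and lay above every other type in all samples. Fibroblast was next at 61.5 CPM ± 10.4, then Myeloid at 59.96 CPM ± 57.5 (n = 4) and Fibroblast proliferating at 39.8 CPM ± 8.47. All remaining types were at or under 14.9 CPM. Fibroblast 2 held 46.4% of the UMIs, and 48.8% of its thinned cells had an Il6 UMI, against 15.7% of Fibroblast cells and 3.01% of Fibroblast-like cells. Without thinning these shares were 70.7%, 40.1% and 5.71%.

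Csf1 was the most widespread of the 9 genes, with a UMI in 93.7% of all cells. It stood at 980 CPM ± 77.3 in Fibroblast, 893 CPM ± 80.6 in Fibroblast 2 and 739 CPM ± 65.8 in Fibroblast proliferating (n = 6 each). Neighbours in that order overlapped. Myeloid cells, which carry the Csf1 receptor Csf1r, were at 609 CPM ± 94.5 (n = 4). RPE, Endothelial, Fibroblast-like and Pericyte cells lay between 207 and 280.1 CPM and overlapped each other. The highest level was in sub-cluster 6, at 2010 CPM against 1022 CPM in sub-cluster 1 and higher in all 6 samples without overlap. Sub-cluster 6 was a group of 477 shallow cells (median 4766 UMIs) with a median of 21.0% mitochondrial UMIs. Its cells with at most 20% mitochondrial UMIs had 1994 to 2729 CPM of Csf1, so the level was as high without the others.

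Across 46 sums of cell type and sample, the genes whose levels ran closest to each member were named by Pearson's r of log2(CPM + 1), among 11038 genes with a mean of 5 CPM or more. The sums share libraries and differ in depth, so r is a description. For Ccl11 they were Gzmd (r = 0.918), Sod3 (0.911), an extracellular superoxide dismutase, and Hsd11b1 (0.911), an enzyme that activates glucocorticoids. Over 49 sums of sub-cluster and sample, Sod3 (0.792) and Hsd11b1 (0.768) were again among the closest 5, beside Kcne4 (0.795), Cd200 (0.776) and Chchd10 (0.755). Ccl7 ran closest to Il11 (0.915), a cytokine of the Il6 family, then to Lamc3 (0.889) and Rab5if (0.886). Il6 ran closest to Errfi1 (0.905), Gucy1a1 (0.896) and Fmo2 (0.883). Cxcl12 ran with F11r (0.914), the endothelial marker Emcn (0.885) and Meox1 (0.881), and Csf1 with Plxdc2 (0.927), Igf2r (0.911) and Wnt5a (0.910). Ccl2 ran with Mr1 (0.836), Pcdh9 (0.811) and the lipopolysaccharide co-receptor Cd14 (0.799). Cxcl5 ran with Svep1 (0.909), Foxp2 (0.895) and Antxr1 (0.882), and Cxcl1 with Rhod (0.861), March5 (0.832) and Vegfa (0.825). The closest gene to Ccl5, Mpp1, reached only 0.518. Between members, r was 0.833 for Ccl11 and Il6, 0.786 for Ccl2 and Ccl7, and 0.0651 for Ccl7 and Cxcl12.

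Of the 13 receptors listed for these ligands, 7 had their highest mean in Myeloid cells. The receptors Ccr2, Ccr3 and Cxcr2 were scarce or absent, with at most 0.616 CPM in any type. Ccr1, a receptor for Ccl7 and Ccl5, averaged 89.4 CPM there and Csf1r 169 CPM, against at most 3.604 CPM in any other type. Of the 3′ words of Csf1r, 18.9% were found in another gene, and 26.5% of those of Sod2, named further on, so their counts are less certain. The Il6 signalling subunit Il6st was at 17.7 to 103 CPM in every type, and the Il6 binding subunit Il6ra was highest in Myeloid at 11.7 CPM. Ackr2, a scavenger of CC chemokines, was found at 14.8 CPM in Endothelial and at most at 0.0508 CPM elsewhere. The scavenger of Cxcl12, Ackr3, was highest in Pericyte at 27.4 CPM. Myeloid cells also made CC chemokines of their own, with Ccl6 at 1419, Ccl9 at 448, Ccl12 at 357 and Ccl4 at 202 CPM, each at most 16.6 CPM elsewhere. Ccl17 was a product of the RPE type, at 183 CPM. Fibroblast 2 had the highest levels of the Il6 family cytokines Il11 (5711 CPM, against 516 CPM in Fibroblast) and Lif (288 against 30.96 CPM), of Cxcl3 (118 against 22.6 CPM) and of the transcription factor genes Cebpb (1961 against 508 CPM) and Cebpd (710 against 289 CPM).

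Between genotypes, Ccl11 was higher over all cells of a sample. The sums were at 83.3, 90.8 and 87.0 CPM in Dram2 wt/wt and at 139, 139.9 and 127 CPM in Dram2 ko/ko. Every Dram2 ko/ko sample lay above every Dram2 wt/wt sample. The means were 87.1 CPM ± 3.74 and 135 CPM ± 6.96 (SD, n = 3 each), and the fitted log2 fold change was 0.65 (SE 0.0816). No gene of 22580 passed an adjusted p under 0.05 in this comparison (0% called by voom-limma), so none of the 9 did. By cell type, the filter on low counts kept 9 of the 9 genes in Fibroblast and in Fibroblast proliferating, 8 in Fibroblast 2 and in RPE, 6 in Fibroblast-like and in Myeloid, 5 in Pericyte and 4 in Endothelial, and voom-limma called none of these. Other settings called some members, as given in the closing section. The shares of all genes called were 0.624% for Fibroblast proliferating, 0.222% for Fibroblast 2, 0.0296% for Myeloid, 0.0118% for Pericyte, 0.00503% for Fibroblast, and 0% for RPE, Fibroblast-like and Endothelial. Over whole samples 1583 genes had an unadjusted p under 0.05. Of all genes tested, 4.2% lay wholly above Dram2 wt/wt there. The rule for choosing the genes used this contrast, so nothing is read from the count.

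Inside the fibroblast state that makes Ccl11, the genotypes overlapped. Fibroblast 2 sums were at 578, 1014 and 1146 CPM in Dram2 wt/wt and at 742, 814 and 1159.8 CPM in Dram2 ko/ko, and the fit gave 0.03 (SE 0.243) on the log2 scale. Sub-cluster 3 gave 463, 950.3 and 991 CPM against 656, 706 and 951 CPM. The share of such cells also varied. Fibroblast 2 took 12.6%, 5.99% and 5.77% of all UMIs in Dram2 wt/wt and 15.4%, 13.4% and 7.999% in Dram2 ko/ko, and these ranges overlapped. Sub-cluster 3 took 16.0%, 8.19% and 7.97% against 19.4%, 17.8% and 11.8%. In Dram2 wt/wt replicate 1 a large share of Fibroblast 2 went with the lowest Ccl11 level within them, and its whole-sample value lay with the other 2.

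To hold the mix of cells constant, each sample was recomputed with the mean share of UMIs that each cell type had over the 6 samples. The Ccl11 values then became 70.4, 133 and 136 CPM in Dram2 wt/wt and 101, 114 and 155 CPM in Dram2 ko/ko. The ratio of means moved from 1.56 to 1.09, and the groups overlapped. The SD also rose, from 3.74 to 36.8 CPM in Dram2 wt/wt and from 6.96 to 28.0 CPM in Dram2 ko/ko. The part of the cell mix in the Ccl11 difference was not tested. With the mix of sub-clusters held constant, a calculation added after the first values had been seen, the ratio was 1.00. For Ccl7 the ratio moved from 1.48 to 1.24 and 1.17, and for Ccl2 from 1.502 to 1.32 and 1.26. With the mix of cell types held constant, the Ccl7 groups, which overlapped as measured, no longer did, at 571, 556 and 495 CPM in Dram2 wt/wt and 575, 830.0 and 602 CPM in Dram2 ko/ko. With the mix of sub-clusters held constant they overlapped, and the Ccl2 groups overlapped under both. The share of all genes that separate under a constant mix was not computed. In a whole-sample sum alone, more cells of a type and more RNA per cell cannot be told apart. Counted as cells, Fibroblast 2 made up 14.1%, 7.41% and 7.96% of the Dram2 wt/wt samples. In Dram2 ko/ko it made up 17.5%, 15.1% and 10.6%, and these ranges overlapped. The cells named Fibroblast had 13.6, 41.6 and 27.4 CPM of Ccl11 in Dram2 wt/wt and 39.0, 36.8 and 56.1 CPM in Dram2 ko/ko, which overlapped. In sub-cluster 2 the Dram2 ko/ko values (15.7, 33.3 and 20.5 CPM) lay above the Dram2 wt/wt values (11.5, 14.5 and 14.3 CPM), where 4.84% of genes did so. In sub-cluster 5 Ccl11 lay wholly below, at means of 3.91 CPM in Dram2 ko/ko and 23.5 CPM in Dram2 wt/wt. That rested on 73 UMIs, 39 of them in 1 cell, too few to pass the filter on low counts. The share of all genes lying wholly below in sub-cluster 5 was not computed.

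**Figure D4:**
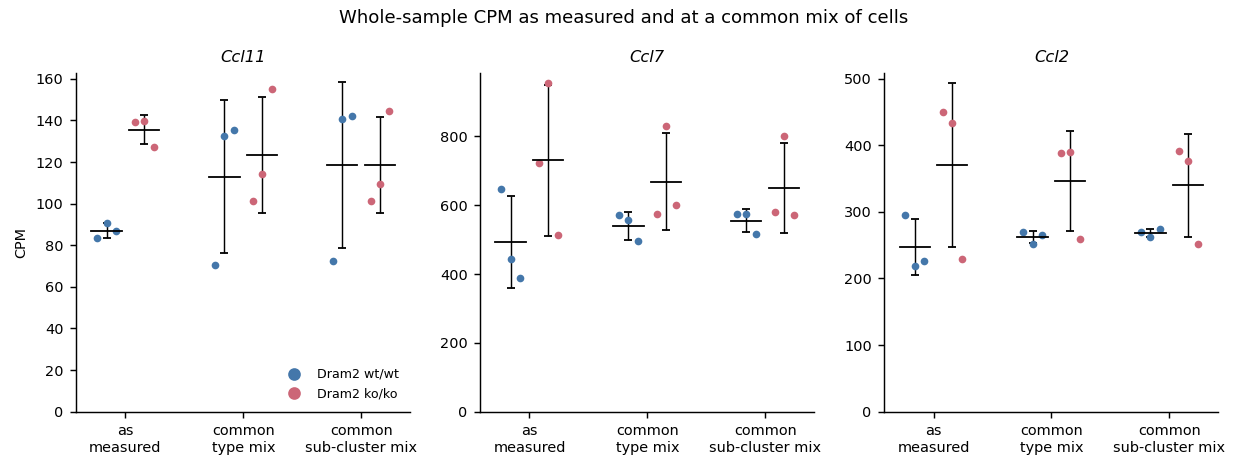
Whole-sample level (CPM) of Ccl11, Ccl7 and Ccl2 as measured, with the mix of cell types held constant, and with the mix of fibroblast sub-clusters held constant. Points are samples, bars are means and whiskers 1 SD (n = 3 per genotype). The Ccl11 groups are apart as measured and overlap under both constant mixes.

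Ccl2 and Ccl7 leaned the same way as Ccl11 over whole samples but overlapped between genotypes as measured. Ccl2 was at 295, 219 and 226 CPM in Dram2 wt/wt and at 450.0, 433 and 229 CPM in Dram2 ko/ko. Ccl7 was at 646, 445 and 389 CPM and at 724, 954 and 513 CPM. For both genes Dram2 ko/ko replicate 3, the sample of batch 2, was the lowest of its group. In the 5 samples of batch 1 alone, the fitted log2 fold change was 0.88 (SE 0.139) for Ccl2, 0.81 (SE 0.211) for Ccl7 and 0.71 (SE 0.0945) for Ccl11, against 0.55, 0.57 and 0.65 over all 6. These were the highest values among 14 alternative settings, and the lowest were 0.377 for Ccl2, 0.328 for Ccl7 and 0.601 for Ccl11. In Fibroblast proliferating, Ccl2 was at 189, 175 and 161 CPM in Dram2 wt/wt and at 253, 269.9 and 215 CPM in Dram2 ko/ko. The groups did not overlap, and the fitted difference was 0.48 (SE 0.103, log2). There 4.76% of all genes lay wholly above Dram2 wt/wt. Within Fibroblast 2, Ccl2 was at 1013, 911 and 1114 CPM against 1436, 1485 and 1032 CPM, and Ccl7 at 3085, 2740.5 and 2893 CPM against 3069.8, 4077 and 3350 CPM, both overlapping.

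Endothelial Csf1 was lower in the knockout sums. The 3 Dram2 wt/wt sums stood at 317, 384 and 328 CPM, and those of Dram2 ko/ko at 149, 208 and 214 CPM, without overlap. The fitted log2 fold change was -0.82 (SE 0.185). Ccl7 in the same sums was at 21.9, 52.9 and 86.5 CPM and at 2.40, 19.3 and 9.01 CPM, also without overlap, with a log2 fold change of -2.20 (SE 0.826). Of all 6682 genes tested in Endothelial sums, 6.6% lay wholly below Dram2 wt/wt and 0% were called. Only 4 of the 9 genes, Csf1, Ccl7, Ccl2 and Cxcl12, had enough UMIs to enter this comparison. Cxcl5 also lay lower (12.3, 35.3 and 34.3 CPM against 4.80, 2.15 and 9.01 CPM), on 53 and 7 UMIs. Ccl2 varied widely inside the Dram2 ko/ko group, at 2.40, 468 and 469 CPM against 228, 106 and 303 CPM in Dram2 wt/wt.

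The endothelial values rested on few cells. Dram2 wt/wt replicates 1 to 3 had 92, 36 and 50 Endothelial cells, and Dram2 ko/ko replicates 1 to 3 had 23, 49 and 38. Of the Csf1 UMIs, 134 of 361, 43 of 174 and 74 of 220 lay in 1 cell each in Dram2 wt/wt, and 21 of 62, 29 of 97 and 18 of 95 in Dram2 ko/ko. A Csf1 UMI was present in 55.4%, 66.7% and 66.0% of Endothelial cells against 60.9%, 38.8% and 57.9%, which overlapped. When each cell was scaled to CPM before averaging, so that deep cells counted no more than shallow ones, Csf1 was at 166, 223 and 216 CPM in Dram2 wt/wt and at 129, 145 and 213 CPM in Dram2 ko/ko, and the groups overlapped. Ccl7 by that measure was at 18.9, 86.0 and 53.4 CPM against 0.793, 19.6 and 4.32 CPM and overlapped too. Fibroblasts have far more Csf1 and Ccl7 than Endothelial cells, so the 8 fibroblast markers were summed in the Endothelial cells. They came to 675 to 1999 CPM in Dram2 wt/wt and 793 to 1164 CPM in Dram2 ko/ko, and none of the 8 lay wholly above or below. Fbln1 was at 0 in 2 of the 3 Dram2 ko/ko sums, and the other 7 were above 0 in every sum. Most of that sum was Mgp, at means of 699 and 719 CPM. The other 7 all had lower means in Dram2 ko/ko, though overlapping. Dcn went from 216 to 44.6 CPM, Col1a1 from 167 to 93.9 CPM, Col1a2 from 136 to 78.0 CPM and Col3a1 from 25.8 to 3.70 CPM. These means moved the same way as Csf1 and Ccl7 in these sums. Their part in the difference was not tested. The 6 endothelial markers summed to 7984 to 8657 CPM and 7862 to 11863 CPM.

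**Figure D5:**
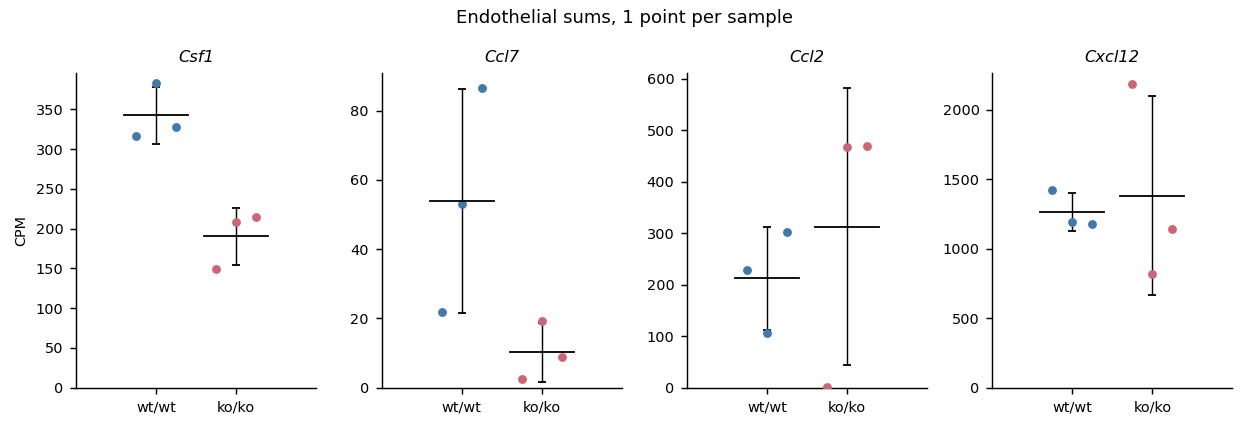
Level (CPM) of Csf1, Ccl7, Ccl2 and Cxcl12 in Endothelial sums, with 1 point per sample, a bar at the mean and whiskers of 1 SD (n = 3 per genotype). Csf1 and Ccl7 do not overlap between genotypes, Ccl2 and Cxcl12 do.

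The remaining members showed no common direction. Over whole samples the log2 fold change was 0.12 (SE 0.130) for Il6, 0.11 (SE 0.111) for Cxcl12, 0.33 (SE 0.285) for Cxcl1, -0.03 (SE 0.173) for Cxcl5, -0.04 (SE 0.108) for Csf1 and -1.56 (SE 0.656) for Ccl5, and all 6 overlapped between genotypes. The Il6 direction turned when the mix was held constant, with a ratio of means of 1.08 as measured, 0.887 with the mix of cell types and 0.846 with the mix of sub-clusters, and the groups overlapped each time. Ccl5 lay wholly below with the mix of sub-clusters held constant, at 3.24, 4.78 and 7.10 CPM in Dram2 wt/wt and 1.28, 0.919 and 2.20 CPM in Dram2 ko/ko, and overlapped with the mix of cell types. The share of all genes that lie wholly below under that mix was not computed, so nothing is read from this separation. The other 4 kept their direction and overlapped under both. An overlap among 3 samples a genotype does not show that a difference is absent. Il6 in Fibroblast 2 was at 296, 608 and 549 CPM in Dram2 wt/wt and at 356, 295 and 444 CPM in Dram2 ko/ko, with -0.36 (SE 0.239) as the fitted log2 difference. Ccl5 in Fibroblast was at 2.29, 6.73 and 11.1 CPM and at 1.93, 0.0336 and 1.53 CPM, wholly below, as 7.01% of genes were, and on the few cells described above. In Myeloid, with 2 samples each, Ccl7 was at 1167 and 915 CPM against 1588 and 1479 CPM, wholly above, as 14.7% of genes were there. The median log2 fold change of the members that passed the filter was 0.12 over whole samples and lay between -0.91 in Endothelial and 0.20 in Pericyte by cell type. For all genes it was 0.0046 over whole samples and between -0.0152 and 0.0098 by type. The Endothelial median of the members rested on 4 genes. Ccl11 over whole samples and Csf1 in Endothelial guided the choice of the genes, so nothing is read from these medians. Ccl11, too scarce for the fit in either type, lay wholly above in Pericyte sums on 9 UMIs, as 5.04% of tested genes did, and wholly below in Myeloid sums, as 19% did.

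The lists of related genes held no call by voom-limma. Receptors of the members, other CC chemokines, other CXC and CX3C chemokines, other stromal cytokines, genes of the NF-kB response, of the IL-4 and IL-13 response, and receptors for IL-1, TNF and IL-17 together held 113 genes, of which 91 could be tested somewhere. Over the 9 comparisons, voom-limma made 523 tests of them and called 0 after adjustment over all genes, with 39 (7.46%) at an unadjusted p under 0.05. Over all genes the same 9 comparisons had 6.29% there. The lists were uneven. Other CC chemokines had 8 of 36 tests there (22.2%), other CXC and CX3C chemokines 9 of 47 (19.1%) and other stromal cytokines 12 of 77 (15.6%). The receptors of the members had 0 of 34, and the remaining lists lay between 1.32% and 3.73%. Whole-sample sums contain the cells of the types, so tests of the same gene are not independent and nothing is read from these shares. Calls were few over all genes too, at 150 with voom-limma, 84 with edgeR and 1265 with DESeq2 over 116895 tests. Of the listed genes, the edgeR quasi-likelihood test called 0 and DESeq2 called 2. Both were in Fibroblast proliferating, where DESeq2 called 1.77% of all genes. They were Cxcl3, a chemokine for neutrophils, with 10.9, 15.8 and 10.7 CPM in Dram2 wt/wt and 20.2, 21.3 and 26.6 CPM in Dram2 ko/ko, and Mif, a cytokine that holds macrophages at a site, at 21.9, 23.4 and 25.2 CPM and 18.3, 12.8 and 7.29 CPM. Under voom-limma their adjusted p-values were 0.0585 and 0.166. Il11, the gene that ran closest to Ccl7, was at 986, 630.0 and 709 CPM over whole samples of Dram2 wt/wt and at 1328, 1111 and 877 CPM in Dram2 ko/ko, which overlapped (0.54 on the log2 scale, adjusted p = 0.532 with voom-limma). The abundant response genes Ptgs2, Cebpb, Cebpd and Sod2 overlapped between genotypes as well, with log2 fold changes of -0.01, 0.28, 0.22 and 0.21. Jak1, the highest gene of the IL-4 and IL-13 response over whole samples, did not overlap. It was at 155, 156 and 156 CPM in Dram2 wt/wt and at 163, 168 and 184 CPM in Dram2 ko/ko. Of all genes, 4.2% lay wholly above in this way.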

How the data were processed

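The authors deposited 1 table of raw UMI counts per gene and cell and 1 table naming the sample, cell type and fibroblast sub-cluster of each cell. Per the submitters' processing notes and the study's methods, reads were aligned with Cell Ranger 3.1.0 to GRCm38 using exons only, and clusters were found with Seurat after integration by batch. Of 52636 gene identifiers, 52403 had a symbol in GENCODE M21. All 25428 cells were used, no doublet caller was run, and the cell type names are the deposited ones. Counts were summed per sample, and per sample and type or sub-cluster with 10 or more cells. Genotypes were compared with voom-limma (limma 3.58.1) after filterByExpr and TMM scaling (edgeR 4.0.16, R 4.3.3), with Benjamini-Hochberg adjustment over all genes and a threshold of 0.05. The fits were tested on simulated data. Nothing says that samples of a genotype came from separate animals, so p-values measure the spread between samples. Alternatives were edgeR's quasi-likelihood test, DESeq2 1.42.0, other size factors, no filter on low counts, a replicate block, batch as a covariate, cell filters and leaving out each sample. The 9 genes and all gene lists were chosen with earlier results of these data known. Beyond the 9 genes and Dram2, a rule allowed up to 4 genes of each list, by level over whole samples, to be named. It also allowed the highest of each list in Endothelial and Myeloid, and the 3 genes closest to each member (5 for Ccl11 over sub-clusters). Not every gene that the rule allowed is named. Ccr1, Ccr2, Ccr3, Cxcr2, Ccl4, Ccl9, Ccl12, Cxcl10, Il6ra, Ackr2, Cxcl3, Mif, Lif and the genes of the Ccl5-rich cells that fall outside this rule were named after their values were seen.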

Additional observations from a re-analysis of the deposited data

Results flagged for a closer look

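For Ccl7, every Dram2 ko/ko sample lay above every Dram2 wt/wt sample in Myeloid sums, at 147% of the Dram2 wt/wt mean with 2 samples each, and below in Endothelial sums, at 19.0% with 3 samples each. Of all genes tested, 14.7% lay wholly above in Myeloid and 6.6% wholly below in Endothelial. The endothelial counts behind this were 107 and 14 UMIs. For Ccl11, the Dram2 ko/ko samples lay above in Pericyte sums, at 479% of the Dram2 wt/wt mean, and below in Myeloid sums, at 1.19%, as 5.04% and 19% of tested genes did. The Pericyte sums held 9 Ccl11 UMIs in all, and 98 of the 99 Myeloid UMIs of the 2 Dram2 wt/wt sums came from 1 sample. In neither gene was the difference between the cell types tested.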

How the results depend on the processing

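The number of genes called by genotype depended on the setting, and the cause was not tested. In the order whole sample, Fibroblast, Fibroblast 2, Fibroblast proliferating, Fibroblast-like, RPE, Endothelial, Pericyte and Myeloid, voom-limma called 0, 1, 33, 113, 0, 0, 0, 1 and 2 genes and DESeq2 called 378, 320, 168, 320, 23, 20, 13, 15 and 8. With batch as a covariate there were 118 calls over whole samples, 87 in Fibroblast, 184 in Fibroblast proliferating and 0 in Pericyte. The edgeR test called 11 in Fibroblast 2, 62 in Fibroblast proliferating, 0 in Pericyte and 10 in Myeloid. Without the filter on low counts there were 202 in Fibroblast proliferating, 151 in Fibroblast, 71 in Fibroblast 2, 59 in Myeloid and 20 in Fibroblast-like. With the replicate block there were 32 calls in Myeloid, 2 in Fibroblast 2 and 0 in each of Fibroblast, Fibroblast proliferating and Pericyte. The replicate numbers are only names here, since same-numbered samples deviated together with r of 0.0987, -0.429 and 0.028. Leaving out 1 sample gave 0 to 290 calls in Fibroblast proliferating, 0 to 242 over whole samples, 0 to 234 in Fibroblast, 0 to 121 in Fibroblast 2, 0 to 85 in Fibroblast-like, 0 to 21 in Pericyte, 0 to 3 in Endothelial and 6 to 83 in Myeloid. The highest value came without Dram2 ko/ko replicate 1, except in Myeloid, where it came without Dram2 wt/wt replicate 3 and a genotype kept 1 sample that was assumed to vary like the others. Some members passed the threshold under other settings (Ccl11 over whole samples, Ccl2 over whole samples, in Fibroblast and in Fibroblast proliferating, and Cxcl12 in Myeloid with 1 Dram2 wt/wt sample left). Their choice used this contrast, so nothing is read from these calls. Batch 2 is only Dram2 ko/ko replicate 3, so the batch covariate and leaving out that sample are in effect the same setting. Of the recomputed log2 fold changes of the 9 genes, 863 moved by less than the spread between samples and 11 by more. The sign still turned in many comparisons where the difference was small beside its SE. Examples are Il6 in Fibroblast proliferating (7 of 14 alternatives), Ccl2 in RPE (5 of 14) and Ccl11 in Fibroblast 2 (3 of 14). It did not turn for Ccl11, Ccl2 and Ccl7 over whole samples or for Csf1 and Ccl7 in Endothelial. Without thinning, 60 shares of cells with a UMI moved and 12 did not. Few Endothelial and Myeloid cells limit the values in those types.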
